A study of Mus musculus with 6 samples.

Results

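The cytokinesis and midbody genes described here are 10 protein-coding genes, *Anln*, *Ect2*, *Racgap1*, *Aurkb*, *Incenp*, *Cdca8*, *Birc5*, *Cit*, *Kif14* and *Cep55*. They were chosen by name, as the rows of the deposited count table whose Ensembl identifiers carry these symbols in the GENCODE M21 annotation of the mouse genome GRCm38. All 10 were found among the 54532 genes of the table, and all 10 were among the 13323 genes that passed the filter on low counts (a median log2 CPM over 1 in at least 1 of the 3 groups, where CPM is the count scaled to the size of the library). The question was whether genes of cell division itself, and not only genes of nuclear division, differed in cardiomyocytes (CMs) that overexpressed (OE) YAP6SA or YAP5SA.

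All 6 libraries came from wild-type ICR mice given a subcutaneous dose of AAV9 (1e+11 viral genomes) at 6 d of age, with hearts taken at 9 d, 3 d after the virus. The virus carried GFP (control), YAP5SA or YAP6SA behind the cardiac troponin T (cTnT) regulatory element, which is active in CMs, so that every group including the controls received virus. YAP5SA is YAP with serine-to-alanine changes at its LATS1/2 phosphorylation sites, and YAP6SA carries a further serine-to-alanine change, made to disrupt its binding to the TEAD transcription factors. CM nuclei were pulled down with an antibody to PCM-1, and poly-A RNA of the nuclei was sequenced in non-directional libraries. Each group had 2 libraries, 1 in each of the 2 batches that the sample labels give.

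Cytokinesis is the step that cuts a cell into daughters after its chromosomes have separated. The chromosomal passenger complex and centralspindlin gather at the middle of the anaphase spindle, the exchange factor Ect2 activates RhoA there, and an actomyosin ring scaffolded by anillin closes the cell down to a thin bridge, the midbody, where Cep55 recruits the ESCRT machinery for the final cut. In rodent hearts many CMs divide their nuclei without dividing the cell in the first weeks after birth and become binucleate. For this reason the genes of the 2 steps are listed apart below, although some of them serve both.

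The libraries held 14552847 to 19615627 gene counts, and 22% to 23.4% of the reads of each library were listed as not assigned to a gene. A gene with 0 counts could have had up to 3, which is 0.153 to 0.199 CPM, and this floor covers counting error alone. *Yap1* itself gave 139 and 130 CPM in the GFP libraries and did not pass the threshold in either variant (log2 fold change -0.09 with YAP6SA and -0.17 with YAP5SA, edgeR FDR 0.952 and 0.495). Whether reads of the viral cassettes are counted on *Yap1* was not tested, so that these values do not show the level of the transgenes. The markers of the labelled cell type were abundant: the 10 CM markers, among them *Tnnt2*, *Myh6* and *Ttn*, summed to 59620 and 79540 CPM with GFP, 55670 and 72860 with YAP6SA and 48660 and 35400 with YAP5SA. The 8 fibroblast markers (860 to 1777 CPM), the 8 endothelial markers (247 to 339 CPM), the 6 mural markers (336 to 588 CPM), the 8 macrophage markers (61.4 to 137 CPM) and the 6 erythroid markers (24.8 to 64 CPM) summed to far less, and none of these genes was at 0 in every library. The fibroblast sum was 1367 CPM in batch 1 and 860 in batch 2 with GFP, 1777 and 984 with YAP6SA, and 1496 and 906 with YAP5SA. The endothelial sum was also higher in batch 1 in every group, and the macrophage sum was lower there. The mural and erythroid sums went both ways. Of the mural sum *Abcc9* alone gave 156 to 387 CPM, and whether its reads came from mural cells or from CMs was not tested.

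The promoters of the members were read first, because the members moved together in the results below. RefSeq windows (GRCm38.p6) from 250 bases before to 50 bases after the start were at hand for 8 of the 10 genes, and not for *Aurkb* and *Incenp*. Motifs were searched by their letters on both strands. The CHR, or cell cycle genes homology region, was searched as TTTGAA and, in its palindromic form, as TTCGAA, and is known as the binding element of the MuvB complexes that time the expression of late cell cycle genes. The others were the CCAAT box (CCAAT), a TEAD site (CATTCC) and an E2F site, for which TTTGGCG was searched together with its forms TTTCCCG, then TTTGCCG, and also TTTCGCG. A CHR was found in the windows of 6 of the 8 genes, *Anln*, *Ect2*, *Racgap1*, *Cdca8*, *Kif14* and *Cep55*, against 21.7% of the 27025 genes with a window. It lay within 50 bases of the start in 5 of the 8, against 6.12% of all genes, a distance chosen after the sequences had been read. A CCAAT box was in 4 of the 8 (*Ect2*, *Racgap1*, *Cdca8* and *Kif14*) against 41.1% of all genes, an E2F site in 2 (*Cdca8* and *Birc5*) against 7.65%, and a TEAD site in 2 (*Racgap1* and *Cit*) against 16.6%. Within 50 bases of the start these 3 motifs were in 3, 1 and 1 of the 8, against 15.6%, 2.79% and 5.1% of all genes. The 5 genes with a CHR near the start are shown from 60 bases before to 30 bases after the start, 5′ to 3′ on the strand of the gene, to let the shared element be seen. Capitals mark the CHR (TTTGAA, or TTCAAA where it lies on the other strand) and the CCAAT box (CCAAT, or ATTGG on the other strand).
*Anln*, chr9:22389177-22389266, minus strand: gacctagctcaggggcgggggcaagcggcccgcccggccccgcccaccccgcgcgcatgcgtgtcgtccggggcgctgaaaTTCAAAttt
*Ect2*, chr3:27153825-27153914, minus strand: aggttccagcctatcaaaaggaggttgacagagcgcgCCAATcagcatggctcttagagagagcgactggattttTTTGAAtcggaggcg
*Racgap1*, chr15:99651627-99651716, minus strand: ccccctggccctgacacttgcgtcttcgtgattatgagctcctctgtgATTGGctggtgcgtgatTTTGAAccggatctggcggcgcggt
*Cdca8*, chr4:124936888-124936977, minus strand: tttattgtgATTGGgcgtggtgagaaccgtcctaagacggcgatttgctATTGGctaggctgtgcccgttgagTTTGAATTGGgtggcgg
*Cep55*, chr19:38054924-38055013, plus strand: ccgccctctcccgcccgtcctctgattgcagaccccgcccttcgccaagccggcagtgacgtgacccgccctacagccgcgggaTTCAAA

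The CHR began 22 bases after the start in *Anln*, with a further copy at 29 that runs past the stretch shown, 16 bases after the second RefSeq start of *Ect2* (40 after its other start), 6 bases after the start in *Racgap1*, 14 in *Cdca8* and 25 in *Cep55* (33 bases before its other start). In *Racgap1* a CCAAT box on the other strand preceded it at -12. In the stretch of *Cdca8* CCAAT boxes lay at -51, -11 and 19, and the last shares its first letter with the CHR. The *Cdca8*, *Cit* and *Kif14* windows start 2394, 378 and 1505 bases inside the GENCODE gene, and no other promoter of these genes was read. A match of letters describes these windows and does not show that a factor binds there.

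**Figure D1:**
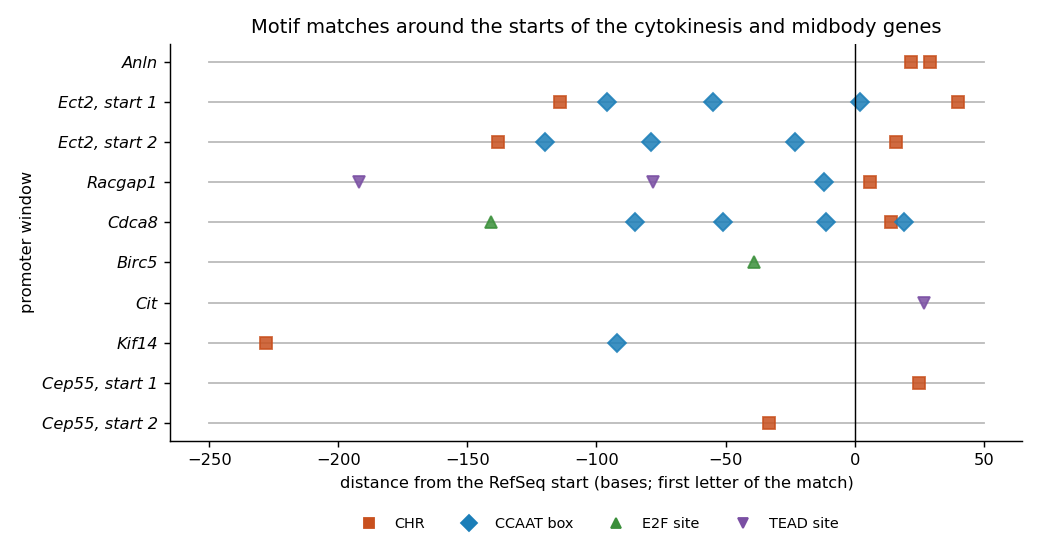
Motif matches by distance from the RefSeq start, in bases, for each promoter window of the 8 genes with a window (grey lines, from 250 bases before to 50 after the start, with both windows of *Ect2* and of *Cep55*). CHR squares sit just after the start line in *Anln*, *Ect2*, *Racgap1*, *Cdca8* and *Cep55*, and TEAD triangles appear only in the windows of *Racgap1* and *Cit*.

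In YAP5SA OE CMs all 10 cytokinesis and midbody genes were expressed more highly than in GFP CMs, from 2.28-fold (*Cit*) to 7.20-fold (*Ect2*). In YAP6SA OE CMs none of the 10 passed the test in either direction, and the fitted folds lay between 0.951 and 1.47. Summed over the 10 genes, expression was 150 and 110 CPM with GFP, 157 and 134 CPM with YAP6SA, and 464 and 608 CPM with YAP5SA, batch 1 before batch 2 here and below. RNA of bulk nuclei cannot tell more nuclei that express a gene from more RNA in each of them.

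**Figure D2:**
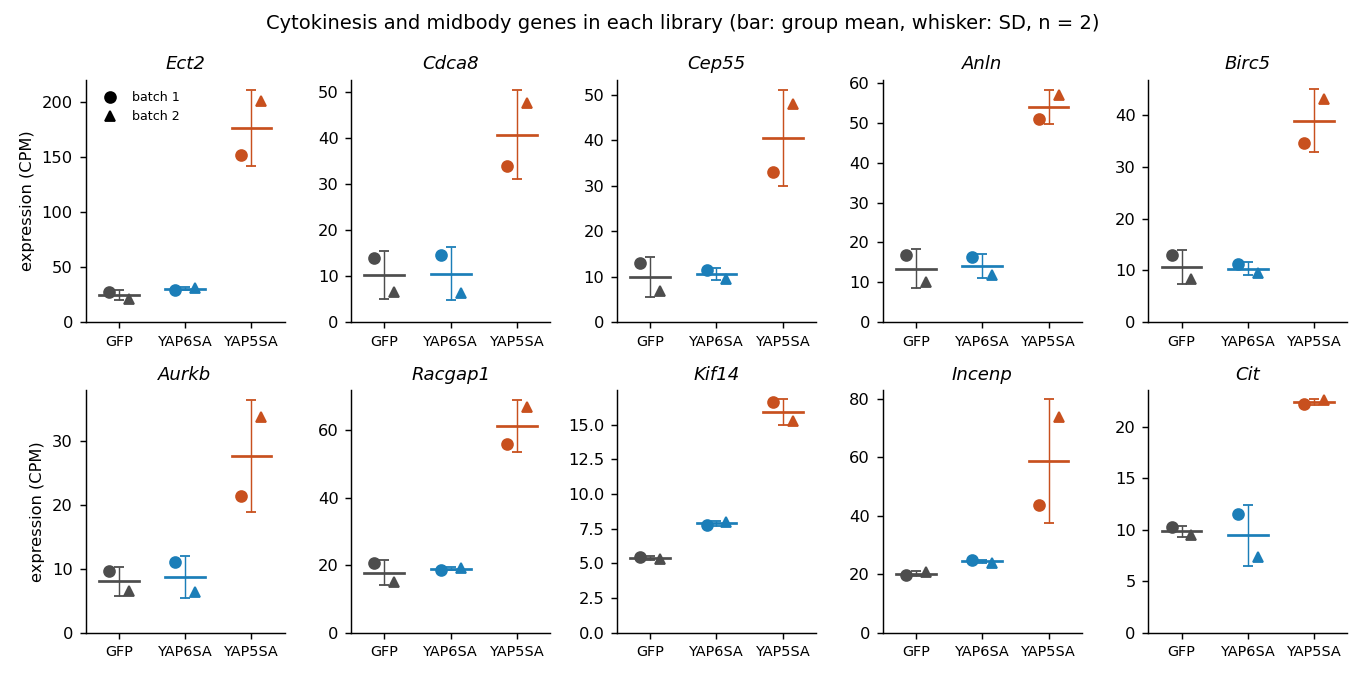
Expression (CPM, linear axis from 0) of each gene in the 6 libraries, with circles for batch 1 and triangles for batch 2, a bar at the group mean and whiskers of 1 SD (n = 2). In every panel both YAP5SA points lie above all 4 other points, and the GFP and YAP6SA points lie close together.

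The first pair of genes switches on RhoA at the division plane. *Ect2* (ENSMUSG00000027699, chromosome 3 of GRCm38, 27097222 to 27153878, minus strand), the exchange factor that loads RhoA with GTP, had 27.6 and 21 CPM in GFP, 29.2 and 31.2 CPM in YAP6SA and 152 and 200 CPM in YAP5SA libraries. Behind these lay 322 to 575 counts in the GFP and YAP6SA libraries and 2291 and 3572 counts in the YAP5SA libraries. The YAP5SA libraries stood far above the others, and the YAP6SA libraries lay just above the GFP libraries without overlap. Against GFP, *Ect2* rose 7.20-fold in YAP5SA OE CMs (log2 fold change 2.85, standard error 0.20, 95% interval of the fold 5.26 to 9.85, edgeR quasi-likelihood FDR 6.89e-05), which was the largest change among the 10. *Racgap1* (ENSMUSG00000023015, chromosome 15, 99620496 to 99651656, minus strand) encodes the centralspindlin subunit that docks Ect2 on the spindle. It had 20.6 and 15.2 CPM in GFP, 18.7 and 19.3 CPM in YAP6SA and 55.9 and 66.8 CPM in YAP5SA libraries. The GFP and YAP6SA ranges overlapped, and both YAP5SA libraries were above them, with a rise of 3.44-fold against GFP (interval 2.48 to 4.77, edgeR FDR 0.000746).

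The contractile ring and its link to the midbody are represented by *Anln*, *Cit* and *Kif14*. *Anln* (ENSMUSG00000036777, chromosome 9, 22332012 to 22389188, minus strand) encodes anillin, which ties actin, myosin and septins to the membrane of the furrow. Its expression was 16.9 and 9.99 CPM in GFP, 16.3 and 11.9 CPM in YAP6SA and 50.9 and 57 CPM in YAP5SA libraries. The YAP6SA values lay inside the GFP range, and *Anln* rose 4.14-fold in YAP5SA OE CMs (interval 2.83 to 6.06, edgeR FDR 0.000769). *Cit* (ENSMUSG00000029516, chromosome 5, 115845278 to 116008947, plus strand) encodes citron kinase, which organizes the late ring and the midbody. It had 10.2 and 9.47 CPM in GFP, 11.5 and 7.40 CPM in YAP6SA and 22.2 and 22.6 CPM in YAP5SA libraries. This was the smallest rise of the 10, 2.28-fold (interval 1.54 to 3.38, edgeR FDR 0.0102), although the ratio between the YAP5SA libraries was the smallest here. *Kif14* (ENSMUSG00000041498, chromosome 1, 136466343 to 136531511, plus strand) encodes a kinesin that holds citron kinase at the central spindle. It had 5.47 and 5.29 CPM in GFP, 7.78 and 8 CPM in YAP6SA and 16.6 and 15.3 CPM in YAP5SA libraries. The 3 groups were stepped without overlap, and the rise in YAP5SA OE CMs was 2.96-fold (interval 1.96 to 4.48, edgeR FDR 0.00392).

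The 4 subunits of the chromosomal passenger complex, which moves from the centromeres to the central spindle at anaphase, rose 2.83-fold to 4.36-fold in YAP5SA OE CMs. *Aurkb* (ENSMUSG00000020897, chromosome 11, 69045647 to 69051664, plus strand), its kinase, had 9.62 and 6.46 CPM in GFP, 11 and 6.37 CPM in YAP6SA and 21.4 and 33.7 CPM in YAP5SA libraries, a rise of 3.51-fold (interval 2.06 to 5.99, edgeR FDR 0.00624). *Incenp* (ENSMUSG00000024660, chromosome 19, 9872296 to 9899551, minus strand), the scaffold that activates the kinase, had 19.7 and 20.8 CPM in GFP, 24.8 and 24 CPM in YAP6SA and 43.6 and 73.6 CPM in YAP5SA libraries. In *Incenp* the YAP6SA libraries lay above the GFP libraries without overlap, the ratio between the YAP5SA libraries was the largest of the 10 genes, and the rise in YAP5SA was 2.83-fold (interval 2.01 to 4, edgeR FDR 0.00199). *Cdca8* (ENSMUSG00000028873, chromosome 4, 124918465 to 124939311, minus strand) encodes borealin, which targets the complex to chromatin. It had 13.9 and 6.53 CPM in GFP, 14.7 and 6.43 CPM in YAP6SA and 33.9 and 47.6 CPM in YAP5SA libraries. In the GFP and YAP6SA groups *Cdca8* was lower in batch 2 than in batch 1, and in the YAP5SA group it was higher, with a fitted rise of 4.36-fold (interval 2.43 to 7.84, edgeR FDR 0.00476). Of its exon bases 4.48% overlap *9930104L06Rik* on the opposite strand, whose reads cannot be told apart in non-directional libraries, and the other 9 genes have no such overlap. *Birc5* (ENSMUSG00000017716, chromosome 11, 117849251 to 117855743, plus strand) encodes survivin, which binds the phosphorylated histone tail at centromeres. It had 12.9 and 8.29 CPM in GFP, 11.2 and 9.40 CPM in YAP6SA and 34.7 and 43.2 CPM in YAP5SA libraries, and rose 3.73-fold (interval 2.49 to 5.59, edgeR FDR 0.00144) with the YAP6SA values inside the GFP range.

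*Cep55* (ENSMUSG00000024989, chromosome 19, 38055011 to 38074423, plus strand), the midbody protein that brings in the ESCRT machinery, had 12.9 and 6.79 CPM in GFP, 11.5 and 9.58 CPM in YAP6SA and 33 and 47.9 CPM in YAP5SA libraries. The YAP6SA values again lay inside the GFP range, and *Cep55* rose 4.20-fold in YAP5SA OE CMs (interval 2.56 to 6.90, edgeR FDR 0.00242).

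Across the 10 genes, 10 were called higher in YAP5SA OE CMs than in GFP CMs, whereas 12.8% of all genes tested were called higher and 9.18% lower. The median log2 fold change of the 10 was 1.86, beside a median of -0.00314 over all 13323 genes. In all 10 both YAP5SA libraries were above both GFP libraries, which held for 31.2% of all genes. *Aurkb* missed the threshold without GFP replicate 2 (log2 fold change 1.54, edgeR FDR 0.0558), and so did *Cit* without GFP replicate 2 (1.29, FDR 0.0621) or GFP replicate 1 (1.12, FDR 0.0639). Without YAP5SA replicate 2 the log2 fold change of *Aurkb* was 1.11 and that of *Cdca8* 1.27, and without YAP5SA replicate 1 they were 2.44 and 2.89, all still called.

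In the comparison of YAP6SA with GFP, 0 of the 10 were called higher and 0 lower by edgeR's quasi-likelihood test, at a background of 0.045% of all genes called higher and 0% lower. None of the 10 had an unadjusted p under 0.05, against 3.86% of all genes in the higher and 2.07% in the lower direction. DESeq2 and limma-voom called none of the 10 either. The share of all genes that these methods called is not given here, so their counts cannot be weighed. The median log2 fold change was 0.10 (0.00179 over all genes), and 8 of the 10 were positive, although 7 of the 10 had opposite signs in the 2 batches. The 3 genes in which both YAP6SA libraries were above both GFP libraries were *Kif14*, *Ect2* and *Incenp*, which is 3 of 10 beside 17.3% of all genes. *Kif14* had the largest value, 1.47-fold (log2 fold change 0.55, standard error 0.27, interval of the fold 0.968 to 2.22, edgeR FDR 0.842). *Ect2* followed at 1.24-fold (interval 0.917 to 1.68, edgeR FDR 0.889) and *Incenp* at 1.21-fold (interval 0.859 to 1.70, edgeR FDR 0.909). The other 7 lay between 0.951-fold (*Cit*) and 1.08-fold (*Cep55*). A rise of the size seen in YAP5SA OE CMs lay outside the intervals: the upper 95% bound of the fold in YAP6SA OE CMs ran from 1.42 (*Cit*) to 2.22 (*Kif14*), below the YAP5SA fold for all 10 genes and below the lower bound of the YAP5SA fold for 9 of them. The folds of both variants were taken against the same GFP libraries, so their intervals are not independent. Smaller changes could not be told from none with 2 libraries a group. The study, at the same FDR threshold, reports many more genes changed in YAP6SA OE CMs than were called here. In a fit of only the 4 libraries of this comparison, edgeR called 1.31% of all genes higher and 0.53% lower, and 0 of the 10.

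**Figure D3:**
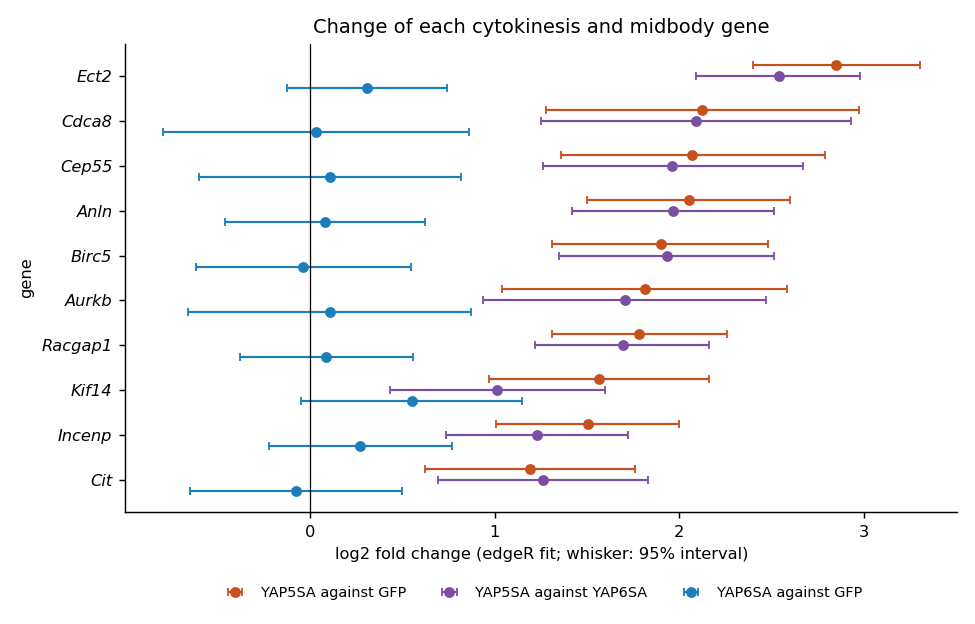
Log2 fold change of each gene with its 95% interval in the 3 comparisons, from the edgeR fit of all 6 libraries. Intervals of YAP5SA against GFP (orange) and YAP5SA against YAP6SA (purple) all lie above 0, and those of YAP6SA against GFP (blue) all include 0.

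Set directly against each other, YAP5SA OE CMs expressed all 10 genes more highly than YAP6SA OE CMs, while 9% of all genes were called higher and 5.68% lower in that comparison. The rises ran from 2.02-fold in *Kif14* (interval 1.35 to 3.02, edgeR FDR 0.029) to 5.81-fold in *Ect2* (interval 4.27 to 7.91, edgeR FDR 0.000134), with a median log2 fold change of 1.82 beside -0.0125 over all genes. In all 10 both YAP5SA libraries were above both YAP6SA libraries, as in 28.6% of all genes. The calls rested in part on single libraries: without YAP6SA replicate 2, 5 of the 10 remained past the threshold (*Anln*, *Ect2*, *Racgap1*, *Birc5* and *Cep55*), and *Kif14* also missed it without YAP6SA replicate 1 (log2 fold change 0.95, edgeR FDR 0.192) or YAP5SA replicate 2 (1.09, FDR 0.053). Without YAP5SA replicate 2 the log2 fold changes were 1.02 for *Aurkb*, 1.24 for *Cdca8* and 1.37 for *Cep55*, and without YAP5SA replicate 1 they were 2.35 for *Aurkb* and 2.86 for *Cdca8*.

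The rise in YAP5SA OE CMs was seen within each batch, where 1 YAP5SA library is set against 1 GFP library. The median log2 difference of the 10 genes was 1.38 in batch 1 and 2.36 in batch 2, and it was larger in batch 2 for 9 of the 10, *Kif14* being the exception (1.58 and 1.51). Of all genes called higher in YAP5SA OE CMs, 85.1% also had the larger difference in batch 2, with medians of 0.95 and 1.48. *Cdca8* went from 1.28 to 2.85, *Cep55* from 1.34 to 2.80 and *Aurkb* from 1.14 to 2.36. YAP6SA against GFP gave medians of 0.08 and 0.23, with opposite signs in the batches for 7 of the 10 genes and for 41.4% of all genes. The batch term itself was past the threshold for none of the 10 (edgeR FDR 0.518 to 0.959). This term is a single shift shared by all groups, and shifts in opposite directions cancel in it. Summed over the 10 genes, expression was lower in batch 2 with GFP (150 and 110 CPM) and YAP6SA (157 and 134 CPM). With YAP5SA it was higher in batch 2 (464 and 608 CPM), so the term cannot show whether the batches differed within a group.

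**Figure D4:**
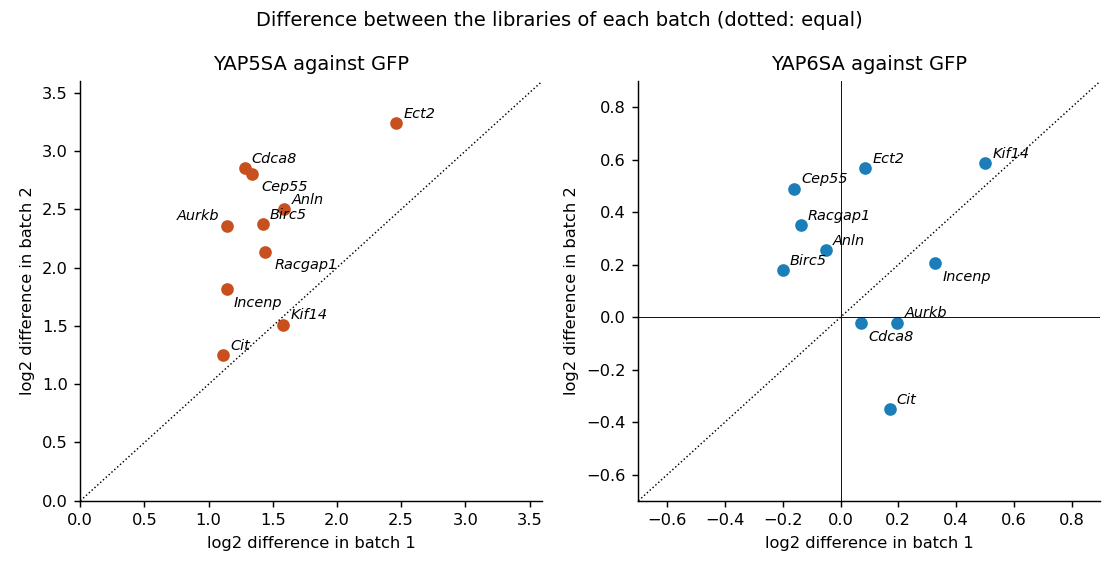
Log2 difference between the libraries of batch 1 (horizontal) and of batch 2 (vertical) for each gene, with equality dotted. For YAP5SA against GFP every gene lies above 0 on both axes and 9 of 10 lie above the dotted line, whereas for YAP6SA against GFP only *Ect2*, *Incenp* and *Kif14* are positive in both batches.

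Levels of different genes were compared per length, as RPKM (CPM divided by the exon length of the gene). In GFP CMs *Incenp* (4.67 ± 0.17 RPKM, SD, n = 2) and *Ect2* (4.51 ± 0.86) came first, followed by *Cep55*, *Birc5*, *Aurkb*, *Racgap1*, *Cdca8* and *Anln* between 3.40 and 1.48 RPKM, each overlapping its neighbour. *Cit* (0.60 ± 0.03) and *Kif14* (0.52 ± 0.01) were lowest, apart from the rest and from each other. In YAP6SA OE CMs *Incenp* (5.63 ± 0.13) and *Ect2* (5.61 ± 0.26) again led and overlapped. In YAP5SA OE CMs *Ect2* stood alone at 32.7 ± 6.36 RPKM, with no overlap with *Cep55* (13.9 ± 3.63), which was the next. *Cep55*, *Incenp*, *Birc5*, *Aurkb*, *Racgap1* and *Cdca8* ran down to 7.88 ± 1.87 with each overlapping its neighbour, and *Anln* (5.95 ± 0.48), *Kif14* (1.54 ± 0.09) and *Cit* (1.36 ± 0.02) came last without overlap.

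The other genes of the pathway were taken from lists written for this description, none of which holds any of the 10. Of 10 genes listed as other central spindle genes, 10 rose in YAP5SA OE CMs against GFP (median log2 fold change 1.78). Over all genes 12.8% were called higher and 9.18% lower in that comparison. The list also holds *Haspin* and *Sgo1*, which act at centromeres. The largest changes were in *Haspin*, the kinase that makes the centromeric mark survivin binds (log2 fold change 2.17, edgeR FDR 0.0124), *Kif23*, the kinesin of centralspindlin (2.01, FDR 0.00137), *Prc1*, which bundles the spindle midzone (2.01, FDR 0.00353), and the midzone kinesin *Kif4* (2.00, FDR 0.00267). Exons of *Prc1* (11.1%) and *Kif4* (15.1%) overlap genes on the opposite strand. Of 30 karyokinesis genes, which serve kinetochores, chromosome condensation and the mitotic checkpoint, 28 rose and none fell (median 1.75), led by the kinetochore genes *Knl1* (2.75, edgeR FDR 0.00181) and *Spc24* (2.73, FDR 0.000746), the condensin gene *Ncapg* (2.67, FDR 0.00177) and *Top2a* (2.15, FDR 0.0017). The 2 that did not pass, named after their values were seen, were the centromeric histone gene *Cenpa* (-0.52, FDR 0.0529) and the condensin gene *Ncapd2* (-0.06, FDR 0.8). The medians of the cytokinesis and midbody, central spindle and karyokinesis lists were thus 1.86, 1.78 and 1.75, and the differences between the lists were not tested. The lists do not part cell division from nuclear division cleanly, since the passenger complex among the 10 also serves the centromeres.

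The lists further from the spindle moved less uniformly. Their counts stand beside 12.8% of all genes called higher and 9.18% called lower in YAP5SA OE CMs against GFP. Of 21 contractile ring genes, 11 rose and 2 fell in YAP5SA OE CMs (median 0.78), with *Iqgap3*, an actin-binding scaffold (1.82, edgeR FDR 0.00077), and the light chain *Myl9* (1.51, FDR 0.00186) among the largest rises. The regulatory light chains *Myl12b* (2.32, FDR 0.0159) and *Myl12a* (1.61, FDR 0.000811) rose as well, but their near-identical copies can share reads, and their separate values are uncertain. *Myl12b* had only 22 and 9 counts in the GFP libraries, and 26.7% of its exon bases overlap another entry of the same name. Of the exon bases of *Myl12a* 19.9% overlap *Myl12b* and *Myom1*. *Myh14*, a nonmuscle myosin heavy chain, and the septin gene *Sept6* fell (-0.80, FDR 0.0105, and -1.0, FDR 0.0234; named after their values were seen). Of 21 abscission genes, the ESCRT subunits and their partners that Cep55 works with, 1 rose and 1 fell (median -0.00232), *Ulk3*, a kinase of the abscission checkpoint (0.69, edgeR FDR 0.0191), and *Zfyve19*, a checkpoint regulator of ESCRT (-0.85, FDR 0.00492). Of 17 regulators of late cell cycle transcription, 7 rose and none fell (median 0.56), with *E2f1* (2.81, edgeR FDR 0.000524), *E2f7* (2.21, FDR 0.00713), *E2f2* (2.02, FDR 0.0115) and *Foxm1* (1.67, FDR 0.00174) the largest.

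In YAP6SA OE CMs none of the genes in the central spindle, karyokinesis, abscission and regulator lists was called in either direction by edgeR, with medians of 0.09, 0.04, -0.04 and 0.08, and 2 karyokinesis genes and 1 regulator were higher and 1 regulator lower at an unadjusted p under 0.05. Over all genes edgeR called 0.045% higher and 0% lower against GFP. In the contractile ring list only *Myl9* was called (1.89, edgeR FDR 0.025), and the list had a median of 0.29 (0.00179 over all genes), with 15 of 21 genes positive. At an unadjusted p under 0.05, 6 of the 21 were higher and 0 lower, beside the 3.86% and 2.07% of all genes above. The 6 include both *Myl12a* and *Myl12b*, whose near-identical copies can share reads, and *Myl12b* had only 22 and 9 counts in the GFP libraries. YAP5SA against YAP6SA called 10 of 10 central spindle, 27 of 30 karyokinesis, 4 of 21 contractile ring, 0 of 21 abscission and 8 of 17 regulator genes higher, and 0, 0, 1, 1 and 0 lower. Over all genes that comparison called 9% higher and 5.68% lower.

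**Figure D5:**
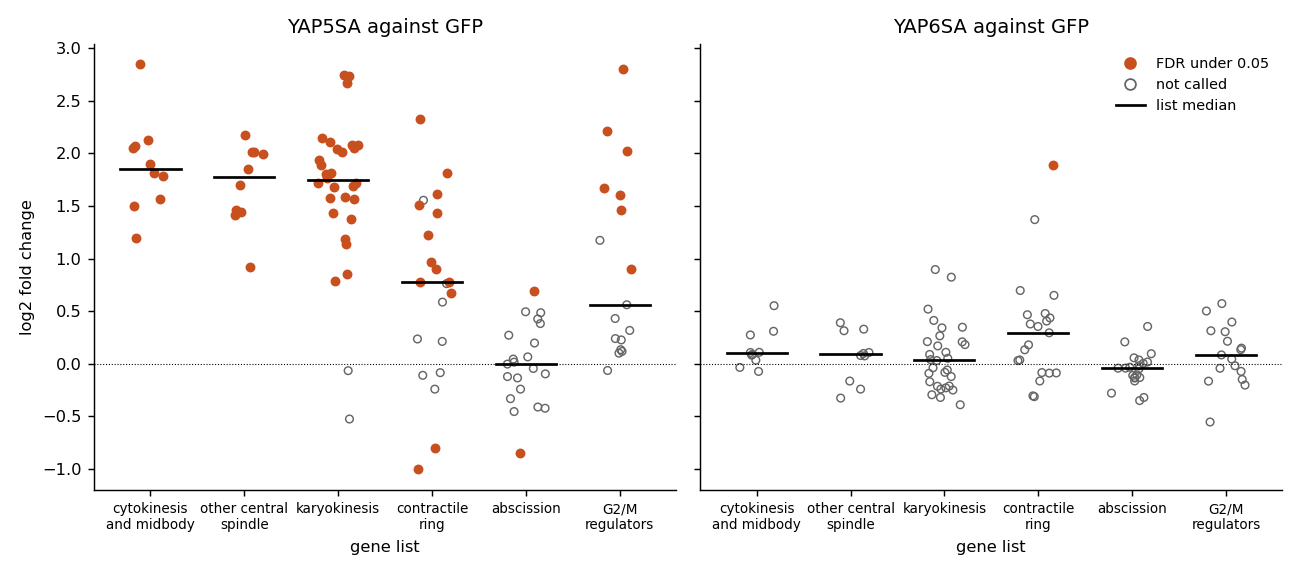
Log2 fold change against GFP of every kept gene in the 6 lists, for YAP5SA (left) and YAP6SA (right), with filled points past an FDR of 0.05, open points not called and a bar at each list's median. On the left the first 3 lists lie almost wholly above 0 with medians of 1.86, 1.78 and 1.75 and the abscission list is centred on 0, and on the right *Myl9* is the only filled point.

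The cell type markers were read beside these changes. In YAP5SA OE CMs 0 of 8 fibroblast, 0 of 8 endothelial and 0 of 2 erythroid markers kept by the filter were called. Of the 6 genes listed as mural markers 1 was lower, *Abcc9* (-0.81, edgeR FDR 0.0287), whose reads may come from CMs as well. Of 7 macrophage markers kept, 2 were higher, *Lyz2* (1.43, FDR 0.00611) and *C1qa* (0.96, FDR 0.0228). Of all genes 12.8% were called higher and 9.18% lower in this comparison. The macrophage markers summed to 61.4 and 88.8 CPM in GFP, 80 and 105 CPM in YAP6SA and 90.6 and 137 CPM in YAP5SA libraries. Of the 10 CM markers 2 were lower, *Pln* (-1.04, edgeR FDR 0.00784) and *Ryr2* (-0.81, FDR 0.0455), while 9 of the 10 had a negative log2 fold change (median -0.76). At an unadjusted edgeR p under 0.05, 6 of the 10 were lower, beside 17% of all genes. With no filter on low counts 6 of the 10 CM markers were called lower against GFP, and 7 of the 10 against YAP6SA, where 2 were called with the filter, beside 5.68% of all genes. The share of all genes called with no filter is not given here. In YAP6SA OE CMs none of these markers was called against GFP. Positive log2 fold changes were held by 8 of 8 fibroblast (median 0.32), 7 of 7 macrophage (0.36) and 6 of 6 mural markers (0.15). The endothelial markers had 6 of 8 positive, the CM markers 3 of 10 and the erythroid markers 0 of 2. At an unadjusted edgeR p under 0.05, 3 fibroblast, 1 macrophage and 1 mural marker were higher, beside 3.86% of all genes. The part of the marker shifts in the changes of the cytokinesis and midbody genes was not tested.

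The 10 genes also varied alike across the 6 libraries. Pearson's r of log2 CPM between pairs of them ran from 0.835 (*Cdca8* and *Kif14*) to 0.997 (*Ect2* and *Racgap1*) over 6 libraries, which share the difference between groups. The genes outside the 10 whose log2 CPM followed the mean standardised profile of the 10 most closely were *Trip13* (r = 0.9994), *Zbtb8b* (0.9978), *Kifc1* (0.9977), *Ankle1* (0.997) and *Tgfb3* (0.9967), of 12699 genes compared, 63 of which had an r over 0.99. *Trip13*, an ATPase of the mitotic checkpoint, had 5.21 and 3.85 CPM in GFP, 5.75 and 4.37 CPM in YAP6SA and 15.7 and 21.6 CPM in YAP5SA libraries. *Zbtb8b*, a zinc finger gene, went from 1.26 and 0.392 CPM in GFP libraries to 44 and 155 CPM in YAP5SA libraries, so that likeness of pattern did not mean likeness of size.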

How the data were processed

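Nuclear poly-A RNA was sequenced from 6 PCM-1 pulldowns, 2 per group. Reads were aligned by the authors to mm10 (STAR, Ensembl GRCm38.94), and the deposited values are raw counts per gene without normalization. The 4 rows that name no gene were left out (22% to 23.4% of the reads). Genes were kept at a median log2 CPM over 1 in at least 1 group, as in the study's methods, and tested with edgeR 4.0.16 under R 4.3.3 (quasi-likelihood test after TMM scaling) in 1 model of all 6 libraries with batch and group. FDR is the Benjamini-Hochberg adjusted p over the 13323 genes kept, with a threshold of 0.05. RPKM used the union exon length in GENCODE M21, correlations used a prior count of 2, and differences within a batch were read from the same log2 values. The script was tested on simulated counts.

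The members and lists were chosen with earlier results of these data known. All 10 members were named, up to 4 of the largest called changes with the same sign in both batches per list and comparison, *Yap1*, and the 5 genes most like the members. The batch term pairs the libraries, since the labels' batch number is the replicate number. The deviations of GFP and YAP6SA libraries of a batch were correlated across genes at 0.368. With YAP5SA the shared deviation was weak, at 0.0985 (GFP and YAP5SA) and 0.175 (YAP6SA and YAP5SA). Replicates differed by 25.3 to 39.6 times what counting alone gives (chi-square over its degrees of freedom), so none was a copy. The labels speak of hearts collected per virus and do not tie a library to a litter, so p-values measure the spread between these libraries. Alternatives were RLE scaling, no filter, a minimum of 10 counts per library, the likelihood ratio test, DESeq2 1.42.0, limma-voom (limma 3.58.1), no batch term, the 4 libraries compared, and each library left out.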

Additional observations from a re-analysis of the deposited data

Results flagged for a closer look

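The difference between YAP6SA and GFP had opposite signs in the 2 batches for 7 of the 10 genes, as it did for 41.4% of all genes kept. On the log2 scale it was -0.0516 in batch 1 and 0.255 in batch 2 for *Anln*, -0.138 and 0.35 for *Racgap1*, -0.2 and 0.178 for *Birc5*, and -0.162 and 0.489 for *Cep55*. The order was turned in *Aurkb* (0.196 and -0.0218), *Cdca8* (0.0721 and -0.0227) and *Cit* (0.17 and -0.351). With 1 library per group in a batch, the difference between the batches was not tested. With 2 libraries a group, no group could be searched for an outlying library.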

How the results depend on the processing

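Each comparison was refitted under 14 alternatives, 8 other fits and 6 with a library left out, where the lone library of a group was assumed to vary like the others. In the 8 other fits all 10 genes were called higher in YAP5SA OE CMs against GFP and against YAP6SA OE CMs, and 0 in YAP6SA OE CMs against GFP. In the 4-library fits of these comparisons 11.8%, 9.28% and 1.31% of all genes were called higher. For the remaining fits no share of all genes called is given here. Without the batch block that pairs the libraries, the counts were likewise 10, 10 and 0, so that the block changed no call of the 10 genes. With a library left out, 8 to 10 were called against GFP (medians 1.51 to 2.35) and 5 to 10 against YAP6SA (medians 1.31 to 2.32), the 5 without YAP6SA replicate 2, where *Aurkb* (1.28, edgeR FDR 0.149), *Incenp* (0.995, FDR 0.113), *Cdca8* (1.63, FDR 0.068), *Cit* (0.981, FDR 0.205) and *Kif14* (1.08, FDR 0.235) missed the threshold. For YAP6SA against GFP the median then ran from -0.158 to 0.429, and the sign turned in 12 cases: *Anln* (-0.199 to 0.43), *Racgap1* (-0.189 to 0.408), *Aurkb* (-0.391 to 0.48), *Cdca8* (-0.519 to 0.504), *Birc5* (-0.342 to 0.342), *Cit* (-0.397 to 0.204) and *Cep55* (-0.358 to 0.726). With no filter the contractile ring list held 2 calls in YAP6SA against GFP, the abscission list 2 higher in YAP5SA against GFP and 1 higher and 0 lower against YAP6SA, and the karyokinesis list 1 lower in YAP5SA against GFP, and 6 and 7 of the 10 CM markers were lower in YAP5SA against GFP and against YAP6SA. In the 4-library fits 3 contractile ring genes were called in YAP6SA against GFP, where 1.31% of all genes were called higher, and 0 abscission genes lower in YAP5SA against YAP6SA. The 4-library fit of YAP6SA against GFP also called 1 mural marker higher. For the fit with no filter, no share of all genes called is given here. The cause of these changes between fits was not tested. With 2 libraries a group, the widest interval of a YAP6SA fold on the log scale, that of *Cdca8*, ran from 0.577 to 1.82.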
